A study of Mus musculus with 12 samples.

Results

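The measure described here is how the expression difference between bladder and urethral mesenchyme changed between the embryonic stages E14.5 and E18.5 of the mouse, named by days of gestation. For each gene it is the log2 difference, bladder minus urethra, at E18.5 less the same difference at E14.5. A positive value is a change toward bladder and a negative value a change toward urethra. All 12 of the 12 libraries in the series entered it, and of 55228 genes counted, 18805 had enough counts to be tested. The tissue came from untreated wild-type CD-1 mice, an outbred strain, and only from female embryos. Lower urinary tracts were digested with trypsin, bladder and pelvic urethra were parted, and the mesenchyme was peeled from the epithelium with forceps. Each of the 4 groups (bladder or urethral mesenchyme at E14.5 or E18.5) has 3 libraries, and a library holds the pooled females of 1 litter. Each litter gave both compartments, and the 3 litters of a stage were independent. A library is named below by its group and replicate number, as in E14.5 bladder 2. Levels are CPM, counts scaled to library size and composition, errors of log2 values are standard errors, and errors of CPM values are SD over 3 libraries. Adjusted p-values are from edgeR's quasi-likelihood test over all 18805 genes, and a gene is called where this p is under 0.05. A log2 value with its error in parentheses after a gene's name is its change of the difference. A level is said to move in 1 compartment alone where only that compartment's change with stage was called. The other level may also have moved, short of the threshold.

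The mesenchyme around the bladder lumen forms the detrusor, a thick coat of smooth muscle that stores and expels urine, together with connective tissue and an outer mesothelium. The mesenchyme of the pelvic urethra forms a thinner smooth muscle layer and, around it, the rhabdosphincter, a striated muscle made under myogenic factors such as Myod1 and Myog. Smooth muscle contractile genes are driven by serum response factor and its partner myocardin, which bind CArG boxes. Signals between epithelium and mesenchyme, among them Hedgehog, Wnt, BMP, FGF and retinoic acid, pattern both organs. The series set out to find genes specific to each compartment. Setting the difference at one stage against that at the other asks which of these specificities were already there at E14.5, which came later, and which did not last.

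The libraries held 21495169 to 36349777 counts, so that 3 counts, the limit below which a level is not read, corresponded to 0.0825 to 0.140 CPM. For Tacr1, Npy6r, Thrsp and Dlx2, below, at least 2 libraries of 1 group were under it, and the size of their change is uncertain. On principal components of log2 CPM, replicate 1 of both E14.5 groups stood apart from replicates 2 and 3. Marker lists for mesenchyme were high in every group: the summed level of 8 general mesenchyme genes was 14288 to 18725 CPM in E14.5 bladder, 6509 to 10019 in E14.5 urethra, 20694 to 24442 in E18.5 bladder and 12509.5 to 13856 in E18.5 urethra. Markers of other tissues were present too, as the plot of summed marker levels shows. The summed level of 24 epithelial genes was 317 to 1769 CPM in E14.5 bladder, 1043 to 2313 in E14.5 urethra, 10373 to 13728 in E18.5 bladder and 4095 to 6117 in E18.5 urethra, with E14.5 bladder 1 and E14.5 urethra 1 the highest of their groups. No epithelial marker was at 0 in any group. In bulk tissue, fewer cells of a type and less RNA per cell cannot be told apart, which holds for every result below.

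**Figure D1:**
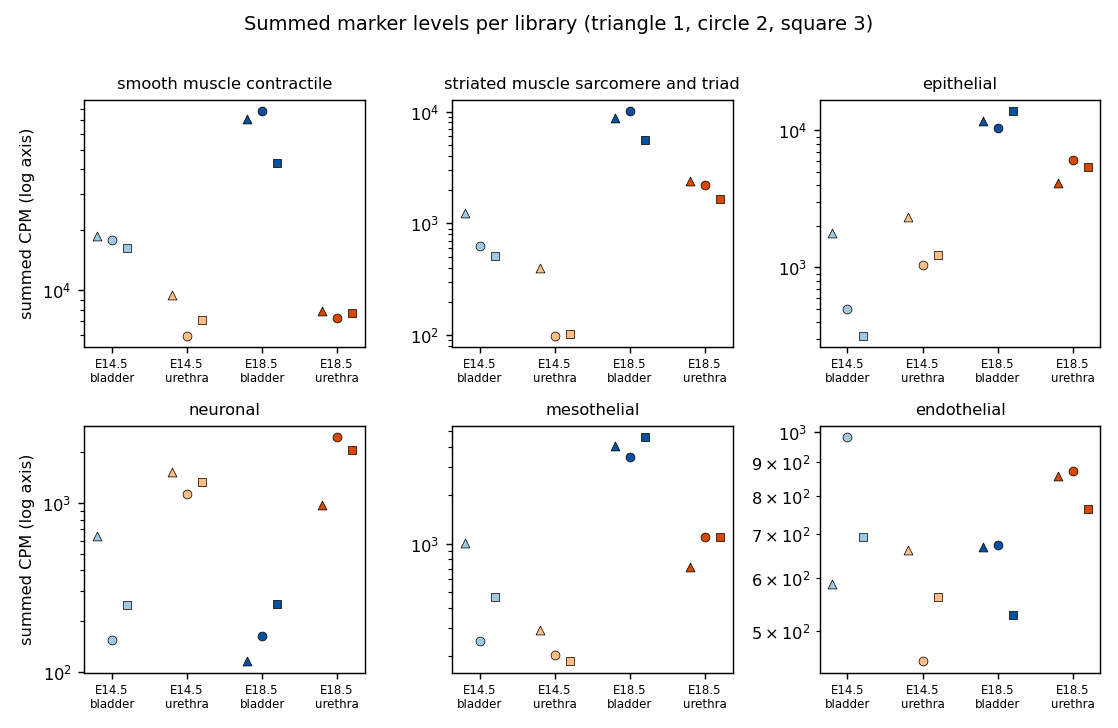
Summed CPM (log axis) of 6 marker lists in each of the 12 libraries, by group on the x axis; triangles are replicate 1, circles replicate 2 and squares replicate 3. The epithelial, mesothelial and smooth muscle sums were highest in the 3 E18.5 bladder libraries, and the neuronal sum was lowest in the bladder libraries of both stages.

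The compartment difference changed for 1631 genes. Toward bladder, 873 of 18805 genes were called (4.64% of those tested), with a median change of 1.29 on the log2 scale, and toward urethra 758 (4.03%), with a median change of -1.52. Of these, 561 and 575 changed at least 2-fold, and 4579 genes passed an unadjusted p of 0.05 in either direction. The bias most often appeared late: 501 genes took on a bladder bias and 358 a urethral bias that was called at E18.5 alone. A bladder bias called at E14.5 alone was lost by 156 genes, and a urethral bias by 158. The bias reversed, with a call at both stages in opposite directions, for 85 genes that ended higher in bladder and 52 that ended higher in urethra. It widened for 102 bladder-biased and 159 urethra-biased genes and narrowed for 27 and 10. The other 23 genes were called for the change but at no single stage. For comparison, 24.9% of all tested genes differed between compartments at E14.5 and 34.8% at E18.5. Counts within the gene lists below stand beside the 4.64% of all genes called toward bladder and 4.03% toward urethra. A single member called in a direction is no result about its list.

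**Figure D2:**
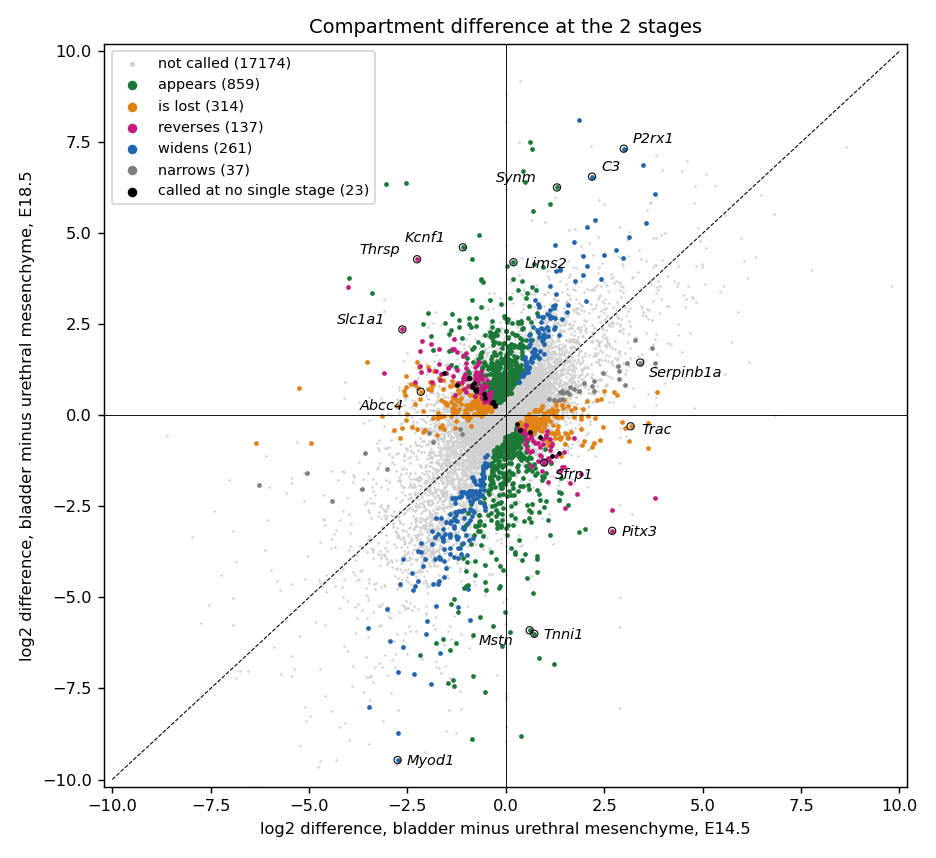
Each point is 1 of the 18805 genes tested, placed by its log2 difference (bladder minus urethra) at E14.5 on the x axis and at E18.5 on the y axis; colours give the class of the 1631 genes called and the dashed line marks equal differences. Called genes lie away from that line, with P2rx1, C3 and Synm far above it and Tnni1, Mstn and Myod1 far below.

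Most of the movement was in the bladder. Between E14.5 and E18.5 the level changed in bladder alone for 1044 of the 1631 genes, in urethra alone for 207, in both in the same direction for 284 and in opposite directions for 84. Neither level passed the test for 12. Of the 1044, 641 rose and 403 fell, and of the 207, 166 rose and 41 fell. Across all tested genes, 45.7% changed with stage in bladder and 24.4% in urethra. A bladder bias appeared mainly through a rise in bladder alone (383 of 501 genes, median bladder change 1.33 against 0.16 in urethra). A urethral bias appeared more often through a fall in bladder alone (195 of 358) than through a rise in urethra alone (78) or through both of these (28). Both levels fell for a further 46 genes and both rose for 9. Bladder biases were lost through a bladder fall (74 of 156) or a urethral rise (44), and urethral biases through a bladder rise (115 of 158). The 27 narrowing bladder biases did so with a rise in urethra alone for 14 genes. The count of genes toward bladder moved with single libraries: it was 1505 without E14.5 bladder 1, 502 without E14.5 bladder 3, 577 without E14.5 urethra 3, 546 without E18.5 bladder 1, and 504, 519 and 543 without E18.5 urethra 1, 2 and 3. The count of genes toward urethra was 497 without E14.5 bladder 3, 493 without E14.5 urethra 3, and 483 and 470 without E18.5 urethra 2 and 3. Without replicate 1 of both E14.5 groups, 1450 genes changed toward bladder and 1076 toward urethra, and reversals toward bladder numbered 250. No gene of the 1631 took the opposite sign under any alternative in which it was tested, which was nearly given, since they were called from these same libraries.

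**Figure D3:**
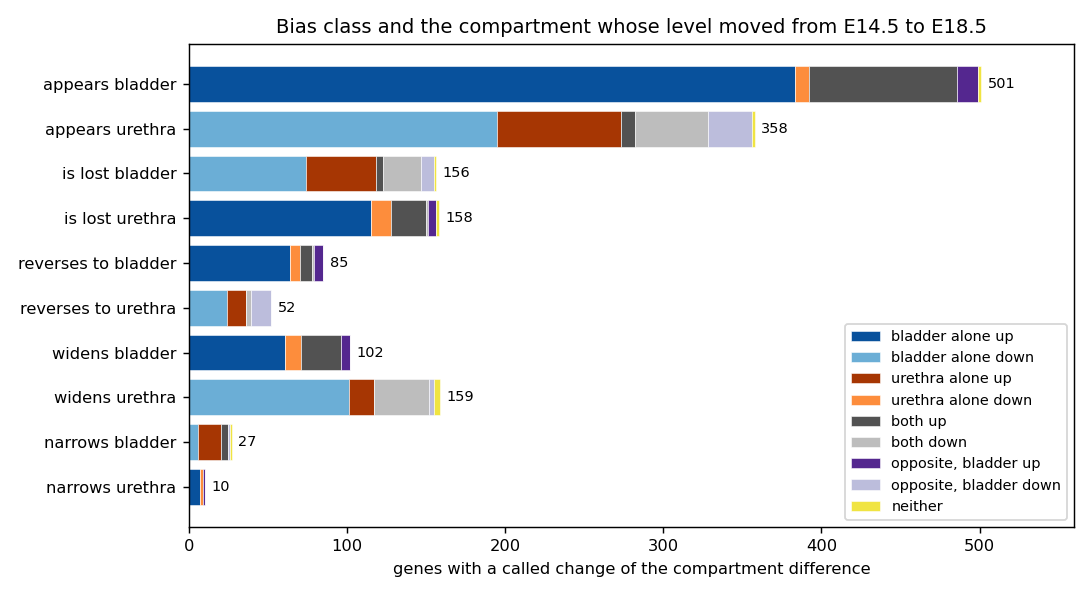
Number of genes (x axis) in each bias class (y axis), split by which compartment's level changed from E14.5 to E18.5; numbers at the bar ends are class totals. Dark blue, a rise in bladder alone, fills 383 of the 501 genes whose bladder bias appeared.

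Contractile smooth muscle genes changed toward bladder as a group. Of the 20 members tested, 16 changed toward bladder and 0 toward urethra in edgeR, and none had an unadjusted p under 0.05 toward urethra or a call toward urethra in DESeq2 or limma-voom. For all 16 the rise with stage was called in bladder alone. Synm was nonetheless higher in every E18.5 urethral library than in any E14.5 one. The median change over the 20 was 1.44 against 0.02 over all genes. For 13 of the 16 a bladder bias at E14.5 widened, and for Synm, Synpo2 and Pdlim7 it appeared. The count was 10 without E14.5 bladder 3, E18.5 bladder 1 or E18.5 urethra 1 or 2, and 14 without replicate 1 of both E14.5 groups. Pdlim7 lost its call without any 1 library other than E14.5 bladder 1, E14.5 urethra 3 and E18.5 bladder 3 (adjusted p = 0.0600 to 0.0953). It also did so with median-ratio size factors (adjusted p = 0.0502) and without replicate 1 of both E14.5 groups (adjusted p = 0.0745). The summed level of the list was 16329.5 to 18690.3 CPM in E14.5 bladder, 5954 to 9445 in E14.5 urethra, 42999.6 to 77574 in E18.5 bladder and 7285 to 7885 in E18.5 urethra, so that the bladder groups did not overlap and the urethral groups did. At E18.5 the lowest bladder library was number 3.

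Synm, an intermediate filament protein of muscle, stood at 27.9, 6.51 and 3.81 CPM in the E14.5 bladder libraries, 7.15, 2.98 and 5.47 in E14.5 urethra, 1980.4, 1544 and 858 in E18.5 bladder and 9.85, 27.3 and 20.3 in E18.5 urethra. Only the E18.5 bladder libraries were high, and the E14.5 groups overlapped. From 1.30 at E14.5 the log2 difference went to 6.26 at E18.5, a change of 4.96 ± 0.98 (adjusted p = 0.0124). The enteric actin Actg2 was at 1099, 961 and 847 CPM in the E14.5 bladder libraries, 438, 182 and 260.4 in E14.5 urethra, 5809, 8183 and 3965 in E18.5 bladder and 181, 252 and 229 in E18.5 urethra. Bladder libraries lay above urethral ones at both stages, and the 2 urethral groups overlapped. From 1.72 at E14.5 the log2 difference went to 4.76 at E18.5, a change of 3.04 ± 0.44 (adjusted p = 0.00291). Calponin, Cnn1, which binds actin and dampens its ATPase, measured 509.5, 381 and 337 CPM in the E14.5 bladder libraries, 242, 107 and 161 in E14.5 urethra, 1948, 3293 and 1276 in E18.5 bladder and 129.6, 144 and 141 in E18.5 urethra. Each bladder library exceeded each urethral one at both stages, and bladder alone rose. From 1.27 at E14.5 the log2 difference went to 3.97 at E18.5, a change of 2.71 ± 0.48 (adjusted p = 0.00682). For the smooth muscle myosin Myh11 the levels were 1641, 1743 and 1013 CPM in the E14.5 bladder libraries, 850.3, 327 and 506 in E14.5 urethra, 14439, 10359.5 and 6847 in E18.5 bladder and 713, 553 and 708 in E18.5 urethra. Bladder alone rose, and bladder was the higher in every library at both stages. From 1.39 at E14.5 the log2 difference went to 4.00 at E18.5, a change of 2.62 ± 0.50 (adjusted p = 0.00872). The myosin light chain Myl9 was at 938, 979.8 and 907 CPM in the E14.5 bladder libraries, 512, 249 and 297 in E14.5 urethra, 2164, 2440.1 and 1666 in E18.5 bladder and 341, 278 and 382 in E18.5 urethra. At both stages each bladder library exceeded each urethral one, and bladder alone rose. From 1.42 at E14.5 the log2 difference went to 2.65 at E18.5, a change of 1.23 ± 0.33 (adjusted p = 0.0396). Acta2, the most abundant member that was not called, had the same order of groups at 2812, 2858 and 2751 CPM in the E14.5 bladder libraries, 1439, 673 and 974 in E14.5 urethra, 6235, 7506 and 4179.6 in E18.5 bladder and 929, 829.5 and 1025 in E18.5 urethra. Its change missed the threshold (1.24 ± 0.36, adjusted p = 0.0506). Synm changed by 6.27 without E14.5 bladder 1. Calls ended for Myl9 without any 1 library other than E14.5 bladder 1, E14.5 urethra 1, 2 and 3 and E18.5 bladder 3 (adjusted p = 0.0579 to 0.101). The call of Myl9 also ended with the replicate number as a block (adjusted p = 0.0690) and without replicate 1 of both E14.5 groups (adjusted p = 0.0524).

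**Figure D4:**
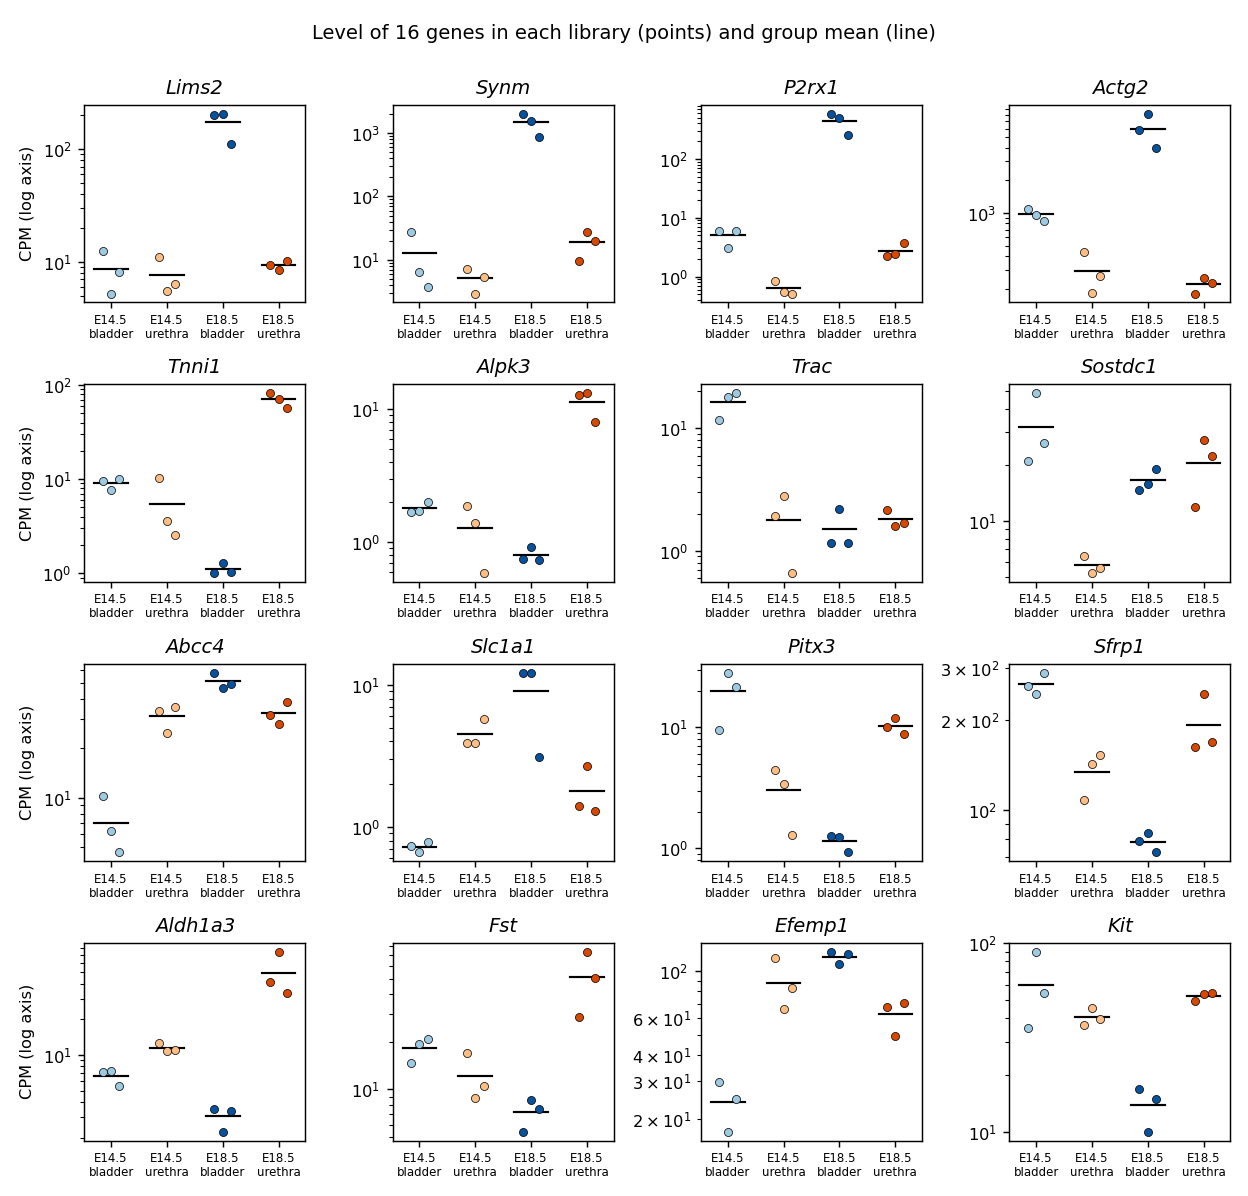
CPM (log axis) of 16 genes in each library; points are libraries, lines group means, with the 4 groups on the x axis. Lims2, Synm and P2rx1 are high in the E18.5 bladder libraries, Tnni1 and Alpk3 in those of E18.5 urethra, and Pitx3 and Sfrp1 are higher in bladder at E14.5 and in urethra at E18.5.

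The promoters of these genes were searched because the list moved together and CArG boxes are the known element of contractile genes. RefSeq promoter windows of the 250 bases before the start (build GRCm38.p6) were at hand for 14 of the 16 called members. A CArG box, searched on both strands, was in 2 of the 14, Myl9 and Vcl, against 1.62% of all 27025 genes with a window. It was also in 2 of 21 striated muscle sarcomere and triad genes (9.52%), so it was not particular to the contractile list. The box, in capitals, lies 161 bases before the start of Myl9 and 227 before that of Vcl, which codes for vinculin, a linker of actin to adhesion plaques. Both windows are on the plus strand, Myl9 at chr2:156775214-156775463 and Vcl at chr14:20929148-20929397.
Myl9: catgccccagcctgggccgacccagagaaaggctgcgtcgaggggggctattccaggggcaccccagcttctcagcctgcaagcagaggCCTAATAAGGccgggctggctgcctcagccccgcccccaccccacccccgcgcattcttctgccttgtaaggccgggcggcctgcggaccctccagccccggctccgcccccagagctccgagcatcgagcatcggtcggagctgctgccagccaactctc
Vcl: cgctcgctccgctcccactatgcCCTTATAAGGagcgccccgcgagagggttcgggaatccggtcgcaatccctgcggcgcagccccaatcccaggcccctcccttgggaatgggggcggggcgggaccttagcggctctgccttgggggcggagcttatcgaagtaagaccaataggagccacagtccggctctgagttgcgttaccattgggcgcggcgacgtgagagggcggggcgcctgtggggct
Vcl stood at 363, 414 and 340.3 CPM in the E14.5 bladder libraries, 224, 133 and 173 in E14.5 urethra, 1620.5, 1273 and 803 in E18.5 bladder and 244, 256 and 222 in E18.5 urethra. Bladder was the higher in every library at both stages, and bladder alone rose. From 1.08 at E14.5 the log2 difference went to 2.35 at E18.5, a change of 1.28 ± 0.33 (adjusted p = 0.0319). Calls did not hold for Vcl without any 1 library other than E14.5 bladder 1 and 2, E14.5 urethra 2 and E18.5 bladder 3 (adjusted p = 0.0585 to 0.0816).

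Receptors and channels of bladder muscle were counted apart, as 18 genes of which 3 changed toward bladder and 1 toward urethra. Of all genes 4.64% and 4.03% did, so the 1 toward urethra is no result about this list. P2rx1, the ATP-gated channel of detrusor muscle, stood at 5.897, 3.11 and 6.05 CPM in the E14.5 bladder libraries, 0.832, 0.549 and 0.514 in E14.5 urethra, 581, 497 and 253 in E18.5 bladder and 2.21, 2.42 and 3.65 in E18.5 urethra. Bladder exceeded urethra at both stages with no overlap, and both compartments rose, bladder by 6.47 ± 0.39, adjusted p = 2.61e-06 and urethra by 2.14 ± 0.43, adjusted p = 0.00538. From 3.00 at E14.5 the log2 difference went to 7.32 at E18.5, a change of 4.33 ± 0.59 (adjusted p = 0.00237). The gene lies on chromosome 11 from 72999103 to 73015200 (GRCm38). Tacr2, the neurokinin receptor that contracts bladder muscle, was low outside E18.5 bladder, at 0.823, 0.166 and 0.173 CPM in the E14.5 bladder libraries, 0.151, 0.314 and 0.220 in E14.5 urethra, 16.97, 12.01 and 10.1 in E18.5 bladder and 0.0761, 0.492 and 0.263 in E18.5 urethra. At E14.5 the compartments overlapped and at E18.5 each bladder library exceeded each urethral one, and bladder alone rose. From 0.69 at E14.5 the log2 difference went to 5.63 at E18.5, a change of 4.94 ± 0.95 (adjusted p = 0.00824). Its relative Tacr1 (3.32 ± 0.83, adjusted p = 0.0289) reached at most 1.38 CPM in any library. The calcium channel Cacna1d changed toward urethra (-1.10 ± 0.29, adjusted p = 0.0345). Of the genes whose bladder bias appeared with the largest changes, Kcnf1, Lims2 and Npy6r were not in any list. Kcnf1, a potassium channel subunit that is silent on its own, stood at 1.05, 0.497 and 0.822 CPM in the E14.5 bladder libraries, 1.97, 1.099 and 2.02 in E14.5 urethra, 21.9, 46.1 and 10.1 in E18.5 bladder and 1.37, 0.574 and 1.17 in E18.5 urethra. Bladder alone rose with stage, and urethra was the higher in every library at E14.5 and each bladder library exceeded each urethral one at E18.5. From -1.09 at E14.5 the log2 difference went to 4.62 at E18.5, a change of 5.71 ± 0.77 (adjusted p = 0.00208). Its bias counts as appearing, and not as reversing, only because the E14.5 difference was not called. Lims2, an adaptor of integrin adhesions, measured 12.5, 5.22 and 8.13 CPM in the E14.5 bladder libraries, 10.9, 5.44 and 6.31 in E14.5 urethra, 201, 205 and 110.3 in E18.5 bladder and 9.44, 8.36 and 10.1 in E18.5 urethra. The other three groups overlapped, and the E18.5 bladder libraries lay far above them. From 0.19 at E14.5 the log2 difference went to 4.21 at E18.5, a change of 4.01 ± 0.50 (adjusted p = 0.00166). Lims2 lies on chromosome 18 from 31922290 to 31958619. Npy6r, a receptor of neuropeptide Y, had 45.9 ± 25.4 CPM in E18.5 bladder and at most 0.656 CPM in any other library (6.67 ± 1.76, adjusted p = 0.0405). C3, the central complement protein, was at 1.92, 0.580 and 1.04 CPM in the E14.5 bladder libraries, 0.454, 0.183 and 0.147 in E14.5 urethra, 694, 435 and 456 in E18.5 bladder and 4.24, 5.57 and 7.04 in E18.5 urethra. Each bladder library exceeded each urethral one at both stages, both levels rose, and the bladder bias widened. From 2.19 at E14.5 the log2 difference went to 6.56 at E18.5, a change of 4.37 ± 0.77 (adjusted p = 0.00651). It rose in both compartments, as did C7, a complement protein of the membrane attack complex (1.78 ± 0.44, adjusted p = 0.0268), and these were the 2 of 10 complement genes called. The threshold was missed for Tacr1 without any 1 library other than E14.5 bladder 1, E14.5 urethra 1 and 2 and E18.5 bladder 2 (adjusted p = 0.0567 to 0.0805), for Cacna1d without any 1 library other than E14.5 bladder 1, E14.5 urethra 2 and E18.5 urethra 2 (adjusted p = 0.0552 to 0.0877), for Npy6r without any 1 library other than E14.5 bladder 1, E14.5 urethra 3, E18.5 bladder 3 and E18.5 urethra 2 (adjusted p = 0.0591 to 0.465) and for C7 without any 1 library other than E14.5 bladder 1, E14.5 urethra 1 and 2, E18.5 bladder 3 and E18.5 urethra 1 (adjusted p = 0.0555 to 0.0742). Tacr2 changed by 6.11 and Npy6r by 7.56 without E14.5 bladder 1, Npy6r by 6.08 without E14.5 bladder 2, Npy6r by 4.83 without E14.5 urethra 2, Kcnf1 by 5.02 without E18.5 bladder 2, and Tacr2 by 5.57 and Npy6r by 7.68 without E18.5 urethra 2.

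Some genes of striated muscle changed toward urethra. Of 15 myogenic regulators tested, 5 were called toward urethra (Myod1, Myog, Myf5, Eya4 and Mef2c), with a median change of -1.61 over the list. Of 26 sarcomere and triad genes, 4 were called toward urethra (Tnni1, Mylpf, Neb and Tnnt1) and 1 toward bladder (Tnnt3), with a median of -1.47. The summed level of the 26 was nonetheless highest in E18.5 bladder, at 515 to 1239 CPM in E14.5 bladder, 99.3 to 402 in E14.5 urethra, 5627 to 10029 in E18.5 bladder and 1660.4 to 2415 in E18.5 urethra. The members with the most counts in E18.5 bladder were Acta1 (234708), Actc1 (178894) and Tnnt2 (74454). In each of the other groups some members had more counts than Acta1. Acta1 stood at 238, 17.7 and 10.1 CPM in the E14.5 bladder libraries, 17.4, 0.471 and 1.36 in E14.5 urethra, 3463, 3692 and 2342 in E18.5 bladder and 182, 190.4 and 165 in E18.5 urethra, with no call (0.33 ± 1.69, adjusted p = 0.933).

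Tnni1, the slow skeletal troponin I, stood at 9.51, 7.58 and 9.99 CPM in the E14.5 bladder libraries, 10.4, 3.56 and 2.53 in E14.5 urethra, 1.01, 1.29 and 1.02 in E18.5 bladder and 81.8, 71.9 and 57.3 in E18.5 urethra. The E14.5 groups overlapped in part, and at E18.5 every urethral library was far above every bladder library. From 0.72 at E14.5 the log2 difference went to -6.00 at E18.5, a change of -6.72 ± 0.63 (adjusted p = 0.000673). Tnni1 lies on chromosome 1 from 135779434 to 135810989. Both levels moved, with a bladder change of -3.04 ± 0.46, adjusted p = 0.000306 and a urethral change of 3.68 ± 0.43, adjusted p = 0.000352. Myostatin, Mstn, which restrains muscle growth, was at 0.640, 0.953 and 0.605 CPM in the E14.5 bladder libraries, 0.946, 0.209 and 0.330 in E14.5 urethra, 0.0747, 0 and 0.320 in E18.5 bladder and 9.97, 11.3 and 6.28 in E18.5 urethra. The ranges of the compartments met at E14.5 and urethra was the higher in every library at E18.5, and bladder fell while urethra rose. The fitted change had an adjusted p of 0.00268. The muscle kinase Alpk3 measured 1.69, 1.699 and 1.99 CPM in the E14.5 bladder libraries, 1.85, 1.39 and 0.587 in E14.5 urethra, 0.747, 0.912 and 0.736 in E18.5 bladder and 12.7, 13.1 and 7.92 in E18.5 urethra. At E14.5 the compartments overlapped and at E18.5 each urethral library exceeded each bladder one, and bladder fell while urethra rose. From 0.49 at E14.5 the log2 difference went to -3.82 at E18.5, a change of -4.31 ± 0.53 (adjusted p = 0.00123). Klhl31, a kelch protein of skeletal muscle, had 2 counts in all E18.5 bladder libraries together and 571 in those of urethra, a ratio, scaled for library size, of 223 (95% exact counting interval 61.5 to 1848). Its fitted change had an adjusted p of 0.0129. These 4 genes were chosen as the largest appearing urethral biases.

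Myod1, which commits cells to the skeletal muscle lineage, stood at 0.549, 0.580 and 0.692 CPM in the E14.5 bladder libraries, 10.17, 0.680 and 1.62 in E14.5 urethra, 0, 0.107 and 0.0640 in E18.5 bladder and 46.8, 42.5 and 31.5 in E18.5 urethra. E14.5 urethra 1 was the highest E14.5 library by far, and all E18.5 urethral libraries were above it. All E18.5 bladder libraries were under the limit of 3 counts, and the fitted change had an adjusted p of 0.0247. Myog, which acts later in differentiation, was at 1.51, 1.99 and 0.908 CPM in the E14.5 bladder libraries, 24.4, 1.67 and 3.598 in E14.5 urethra, 0, 0.215 and 0.576 in E18.5 bladder and 142, 126 and 96.4 in E18.5 urethra, again with E14.5 urethra 1 apart. From -2.73 at E14.5 the log2 difference went to -8.73 at E18.5, a change of -6.00 ± 1.47 (adjusted p = 0.0309). For Myf5, an early myogenic factor, the levels were 0.731, 0.829 and 0.173 CPM in the E14.5 bladder libraries, 3.82, 0.262 and 0.404 in E14.5 urethra, 0.0747, 0.0536 and 0.128 in E18.5 bladder and 16.8, 11.96 and 14.7 in E18.5 urethra. By the stage test urethra alone rose, though every E18.5 bladder library was also below every E14.5 one. The ranges of the compartments met at E14.5, and each urethral library exceeded each bladder one at E18.5. The adjusted p of its fitted change was 0.0256. The fast myosin light chain Mylpf (-4.39 ± 1.12, adjusted p = 0.0355) and the thin-filament ruler Neb (-4.19 ± 1.02, adjusted p = 0.0300) rose in urethra alone. Phex, a membrane endopeptidase of phosphate balance outside these lists, was at 0.366, 0.622 and 0.346 CPM in the E14.5 bladder libraries, 2.53, 1.15 and 0.661 in E14.5 urethra, 0.149, 0.322 and 0.0640 in E18.5 bladder and 15.99, 17.9 and 12.2 in E18.5 urethra. By the stage test urethra alone rose, though every E18.5 bladder library was also below every E14.5 one. Each urethral library exceeded each bladder one at both stages. From -1.68 at E14.5 the log2 difference went to -6.52 at E18.5, a change of -4.84 ± 0.79 (adjusted p = 0.00413). Eya4 (-1.35 ± 0.27, adjusted p = 0.00998) fell in bladder. The muscle factor Mef2c (-1.61 ± 0.27, adjusted p = 0.00418) fell in bladder and rose in urethra, from 41.6 ± 9.503 CPM to 86.7 ± 10.3, and its bias reversed. Tnnt1, slow troponin T, lost a bladder bias as bladder fell and urethra rose (-2.07 ± 0.31, adjusted p = 0.00317). Tnnt3, fast troponin T, took on a bladder bias (2.71 ± 0.56, adjusted p = 0.0147) while rising in both compartments, from 3.89 ± 0.522 CPM in E14.5 bladder to 280.2 ± 116 at E18.5 and from 3.92 ± 1.94 to 43.5 ± 9.81 in urethra. It was not called with no low-count filter (adjusted p = 0.0501). Of 10 endplate genes, 1 was called, the acetylcholinesterase collagen Colq (-2.06 ± 0.58, adjusted p = 0.0444), which beside the 4.03% of all genes called toward urethra is no result about that list.

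Both counts moved with single libraries. The number of sarcomere genes called toward urethra was 2 without E14.5 urethra 3, E18.5 bladder 1 or 3 or E18.5 urethra 1 or 2, and 12 without E14.5 urethra 1. For myogenic regulators it was 2 without E14.5 bladder 2 or E18.5 bladder 1 or 3, 3 without E18.5 bladder 2 or E18.5 urethra 1, and 8 without E14.5 urethra 1. Without replicate 1 of both E14.5 groups the counts were 12 and 9. With fewer libraries, calls ended for Klhl31 without E14.5 bladder 3 (adjusted p = 0.0573), for Myod1 without E14.5 bladder 2 or 3 or E18.5 bladder 1 or 3 (adjusted p = 0.0543 to 0.0768), for Myog without any 1 library other than E14.5 bladder 1 and 3 and E14.5 urethra 1 and 2 (adjusted p = 0.0508 to 0.0858) and for Myf5 without E14.5 bladder 2, E18.5 bladder 1, 2 or 3 or E18.5 urethra 1 (adjusted p = 0.0520 to 0.0761). Calls were lost for Mylpf without any 1 library other than E14.5 bladder 1 and 3 and E14.5 urethra 1 and 2 (adjusted p = 0.0624 to 0.123), for Neb without any 1 library other than E14.5 bladder 1 and 3, E14.5 urethra 1 and 2 and E18.5 urethra 3 (adjusted p = 0.0568 to 0.0789) and for Colq without any 1 library other than E14.5 urethra 1 and E18.5 urethra 1 (adjusted p = 0.0522 to 0.111). Tnni1 changed by -7.56 and Phex by -5.50 without E14.5 urethra 1, and Phex by -5.46 without E18.5 bladder 2. Myog changed by -7.92 without E14.5 urethra 1, Myog by -5.40 without E18.5 bladder 1, and Myog by -7.61 without E18.5 bladder 3. Mylpf changed by -6.16 and Neb by -5.83 without E14.5 urethra 1. The size of the fitted change is not given for Klhl31, Myod1, Myf5 and Mstn, since at least 2 of the 3 E18.5 bladder libraries were under the limit of 3 counts.

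Myogenic factors bind E-boxes, and 2 promoters of this group are shown because the genes of both changed toward urethra. The motif searched was CANNTG, which reads the same on either strand, and it was in 66.2% of all promoter windows, so a match is common. Myog held 2 matches in its 250 bases, 138 and 12 bases before the RefSeq start. Tnni1 held 4, the first 224 and the last 31 bases before its start. Tnni1 has 2 windows in the table, each with a match, and the one shown begins inside the span given above for the gene. The window of Myf5, also called, held no match. Both windows shown lie on the plus strand of GRCm38.p6, Myog at chr1:134289754-134290003 and Tnni1 at chr1:135799171-135799420, with the matches in capitals.
Myog: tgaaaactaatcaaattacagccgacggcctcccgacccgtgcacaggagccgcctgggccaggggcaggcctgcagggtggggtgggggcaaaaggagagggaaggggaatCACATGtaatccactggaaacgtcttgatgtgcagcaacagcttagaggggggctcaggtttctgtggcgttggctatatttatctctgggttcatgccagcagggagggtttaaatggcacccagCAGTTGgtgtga
Tnni1: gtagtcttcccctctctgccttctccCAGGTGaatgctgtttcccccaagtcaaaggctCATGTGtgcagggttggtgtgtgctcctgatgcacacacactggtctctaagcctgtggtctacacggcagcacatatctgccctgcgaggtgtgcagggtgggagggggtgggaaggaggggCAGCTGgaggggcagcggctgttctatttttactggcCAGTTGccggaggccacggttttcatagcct
Myod1 and Neb had no window in the table used.

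A bladder bias at E14.5 was lost by 156 genes. The largest such changes were in Trac, Ramp1, Sostdc1 and Ephb1. Trac, which encodes the constant part of the T-cell receptor alpha chain, stood at 11.6, 18.1 and 19.3 CPM in the E14.5 bladder libraries, 1.93, 2.7997 and 0.661 in E14.5 urethra, 1.16, 2.199 and 1.15 in E18.5 bladder and 2.16, 1.598 and 1.69 in E18.5 urethra. Only the E14.5 bladder libraries were high. From 3.17 at E14.5 the log2 difference went to -0.30 at E18.5, a change of -3.47 ± 0.62 (adjusted p = 0.00617). Ramp1, a partner of the receptor for the nerve peptide CGRP, was at 29.8, 13.5 and 10.9 CPM in the E14.5 bladder libraries, 3.896, 2.77 and 3.67 in E14.5 urethra, 6.05, 8.42 and 12.1 in E18.5 bladder and 13.7, 14.1 and 15.2 in E18.5 urethra. Its bladder level fell and its urethral level rose, and the E18.5 urethral libraries were all above those of bladder. From 2.39 at E14.5 the log2 difference went to -0.69 at E18.5, a change of -3.08 ± 0.50 (adjusted p = 0.00411). Sostdc1, a secreted antagonist of Wnt and BMP signals, measured 21.03, 48.8 and 26.2 CPM in the E14.5 bladder libraries, 6.43, 5.23 and 5.58 in E14.5 urethra, 14.7, 15.8 and 19.1 in E18.5 bladder and 11.8, 27.4 and 22.5 in E18.5 urethra. The E14.5 groups did not overlap and the E18.5 groups did. From 2.48 at E14.5 the log2 difference went to -0.31 at E18.5, a change of -2.79 ± 0.47 (adjusted p = 0.00468). Sostdc1 lies on chromosome 12 from 36314139 to 36318452. The ephrin receptor Ephb1 was at 30.4, 129.7 and 104 CPM in the E14.5 bladder libraries, 21.2, 21.5 and 13.5 in E14.5 urethra, 13.7, 8.42 and 14.2 in E18.5 bladder and 21.2, 17.7 and 22.7 in E18.5 urethra. E14.5 bladder 1 was the lowest of its group, and yet above all urethral libraries of that stage. From 2.23 at E14.5 the log2 difference went to -0.76 at E18.5, a change of -2.99 ± 0.61 (adjusted p = 0.0135). No library left out ended these 4 calls.

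A urethral bias at E14.5 was lost by 158 genes. Abcc4, an efflux pump for cyclic nucleotides and prostaglandins, stood at 10.24, 6.299 and 4.67 CPM in the E14.5 bladder libraries, 33.96, 24.8 and 35.9 in E14.5 urethra, 57.8, 46.7 and 49.5 in E18.5 bladder and 31.9, 27.99 and 38.3 in E18.5 urethra. The urethral level did not pass the stage test (0.05 ± 0.24, adjusted p = 0.893), and the bladder level rose by 2.86 ± 0.26, adjusted p = 1.08e-05. From -2.16 at E14.5 the log2 difference went to 0.65 at E18.5, a change of 2.81 ± 0.35 (adjusted p = 0.00123). Abcc4 lies on chromosome 14 from 118482692 to 118706219. Prrg4, a membrane protein with a Gla domain, was at 1.23, 0.953 and 0.303 CPM in the E14.5 bladder libraries, 5.03, 3.51 and 4.66 in E14.5 urethra, 16.2, 13.6 and 18.46 in E18.5 bladder and 6.17, 10.9 and 9.701 in E18.5 urethra. Urethra was the higher in every library at E14.5 and bladder was the higher in every library at E18.5, and both levels rose. From -2.40 at E14.5 the log2 difference went to 0.85 at E18.5, a change of 3.25 ± 0.52 (adjusted p = 0.00385). Hdc, the enzyme that makes histamine, differed in that its urethral level fell and that of bladder did not pass the stage test. It measured 6.86, 2.36 and 0.822 CPM in the E14.5 bladder libraries, 7.2996, 47.1 and 61.5 in E14.5 urethra, 4.896, 7.99 and 7.104 in E18.5 bladder and 1.37, 2.38 and 3.48 in E18.5 urethra. E14.5 urethra 1 lay far below the other two libraries of its group. From -3.53 at E14.5 the log2 difference went to 1.47 at E18.5, a change of 5.00 ± 1.14 (adjusted p = 0.0231). Bmp7, a BMP ligand, was at 21.3, 14.46 and 16.95 CPM in the E14.5 bladder libraries, 57.7, 40.2 and 60.1 in E14.5 urethra, 43.3, 39.8 and 44.8 in E18.5 bladder and 51.1, 32.3 and 46.5 in E18.5 urethra. At E14.5 each urethral library exceeded each bladder one and at E18.5 the compartments overlapped, and bladder alone rose. From -1.58 at E14.5 the log2 difference went to -0.02 at E18.5, a change of 1.56 ± 0.28 (adjusted p = 0.00651). Fgfr2, the receptor of epithelial and stromal FGFs, measured 94.2, 106 and 72.9 CPM in the E14.5 bladder libraries, 173, 153 and 183 in E14.5 urethra, 227, 145 and 226 in E18.5 bladder and 152, 102 and 154 in E18.5 urethra. Bladder alone rose with stage, and urethra was the higher in every library at E14.5 and the compartments overlapped at E18.5. From -0.90 at E14.5 the log2 difference went to 0.56 at E18.5, a change of 1.45 ± 0.29 (adjusted p = 0.0100). Among these genes, calls ended for Hdc without E14.5 bladder 2, E14.5 urethra 3, E18.5 bladder 3 or E18.5 urethra 1 or 2 (adjusted p = 0.0514 to 0.0655). Hdc changed by 6.07 without E14.5 bladder 1.

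Biases that narrowed were fewer. Ifi35, an interferon-induced protein, stood at 24.4, 25.3 and 22.4 CPM in the E14.5 bladder libraries, 4.01, 3.19 and 1.54 in E14.5 urethra, 19.8, 18.9 and 24.4 in E18.5 bladder and 11.1, 11.6 and 12.6 in E18.5 urethra. At both stages each bladder library exceeded each urethral one, and urethra alone rose. From 3.04 at E14.5 the log2 difference went to 0.84 at E18.5, a change of -2.204 ± 0.36 (adjusted p = 0.00418). Serpinb1a, an inhibitor of neutrophil proteases, was at 28.9, 27.5 and 27.03 CPM in the E14.5 bladder libraries, 2.91, 3.35 and 1.51 in E14.5 urethra, 28.999, 42.2 and 38.6 in E18.5 bladder and 9.03, 17.9 and 13.3 in E18.5 urethra. Bladder was the higher in every library at both stages, and urethra alone rose. From 3.41 at E14.5 the log2 difference went to 1.45 at E18.5, a change of -1.96 ± 0.40 (adjusted p = 0.0109). In both, bladder stayed above urethra in every library of a stage, and the urethral level alone rose. On the urethral side, Tle4, a Groucho corepressor, measured 35.7, 36.01 and 26.6 CPM in the E14.5 bladder libraries, 120.3, 111 and 153 in E14.5 urethra, 46.003, 43.2 and 36.6 in E18.5 bladder and 61.5, 58.02 and 56.8 in E18.5 urethra. Urethra alone fell, and each urethral library exceeded each bladder one at both stages. From -1.97 at E14.5 the log2 difference went to -0.49 at E18.5, a change of 1.48 ± 0.21 (adjusted p = 0.00237). Dapl1 had a bladder level of 0.623 ± 0.498 CPM at E14.5 and 6.33 ± 1.58 at E18.5, against 7.401 ± 0.986 and 13.1 ± 1.28 in urethra (2.54 ± 0.54, adjusted p = 0.0136), and without E14.5 bladder 1 its change was 3.40. Exons of Ifi35 share 16.8% of their length with a gene on the other strand, and whether counting used strand is not given in the sources used here.

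Reversals toward bladder were led by Thrsp, Slc1a1, Ikzf3 and Slc16a12. Thrsp, a regulator of fatty acid synthesis, stood at 0.411, 0 and 0.0865 CPM in the E14.5 bladder libraries, 0.756, 0.628 and 0.991 in E14.5 urethra, 4.86, 6.49 and 4.45 in E18.5 bladder and 0.254, 0.246 and 0.292 in E18.5 urethra. Bladder alone rose with stage, and urethra was the higher in every library at E14.5 and each bladder library exceeded each urethral one at E18.5. From -2.26 at E14.5 the log2 difference went to 4.29 at E18.5, a change of 6.54 ± 0.88 (adjusted p = 0.00184). Slc1a1, a glutamate transporter, was at 0.731, 0.663 and 0.778 CPM in the E14.5 bladder libraries, 3.896, 3.899 and 5.73 in E14.5 urethra, 12.03, 12.2 and 3.104 in E18.5 bladder and 1.396, 2.66 and 1.29 in E18.5 urethra. E14.5 bladder was the lowest group with no overlap, and E18.5 bladder 3 was much lower than the other two bladder libraries of that stage but above all urethral ones. From -2.63 at E14.5 the log2 difference went to 2.36 at E18.5, a change of 4.99 ± 0.69 (adjusted p = 0.00209). Slc1a1 lies on chromosome 19 from 28835049 to 28913960. Ikzf3, a zinc finger factor of lymphocytes, measured 0.366, 0.249 and 0.0865 CPM in the E14.5 bladder libraries, 1.29, 1.36 and 0.551 in E14.5 urethra, 4.86, 6.38 and 7.58 in E18.5 bladder and 1.7001, 1.598 and 2.19 in E18.5 urethra. Bladder was the higher in every library at E18.5 and each urethral library exceeded each bladder one at E14.5, and bladder alone rose. From -2.18 at E14.5 the log2 difference went to 1.77 at E18.5, a change of 3.96 ± 0.63 (adjusted p = 0.00359). Slc16a12, of the monocarboxylate transporter family, was at 0.137, 0.580 and 0.173 CPM in the E14.5 bladder libraries, 1.13, 0.942 and 1.32 in E14.5 urethra, 3.48, 8.31 and 6.82 in E18.5 bladder and 1.19, 1.76 and 1.78 in E18.5 urethra. Urethra was the higher in every library at E14.5 and bladder was the higher in every library at E18.5, and bladder alone rose. From -1.89 at E14.5 the log2 difference went to 1.97 at E18.5, a change of 3.87 ± 0.68 (adjusted p = 0.00534). In all 4 the bladder level rose and the urethral level did not pass the stage test. Even so, every E18.5 urethral library was below every E14.5 one for Thrsp and Slc1a1, and above every E14.5 one for Ikzf3. Efemp1, a fibulin of elastic fibres, reversed at a higher level, 29.7, 17.4 and 24.7 CPM in the E14.5 bladder libraries, 115, 66.1 and 82.9 in E14.5 urethra, 123, 108 and 119.7 in E18.5 bladder and 67.5, 49.3 and 70.3 in E18.5 urethra. At each stage the groups did not overlap. From -1.88 at E14.5 the log2 difference went to 0.91 at E18.5, a change of 2.79 ± 0.32 (adjusted p = 0.00106). Thrsp changed by 8.38 without E14.5 bladder 1, and Thrsp by 5.95 and Slc16a12 by 4.80 without E14.5 bladder 2. Exons of Slc1a1 overlap a gene on the other strand over 31.9% of their length.

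Reversals toward urethra were led by Pitx3, Sphkap, Fam167b and Lrrn2. Pitx3, a homeodomain factor known from lens, midbrain and muscle, stood at 9.51, 28.3 and 21.7 CPM in the E14.5 bladder libraries, 4.43, 3.43 and 1.28 in E14.5 urethra, 1.27, 1.23 and 0.928 in E18.5 bladder and 10.1, 11.9 and 8.85 in E18.5 urethra. All E14.5 bladder libraries were above all E14.5 urethral ones, and all E18.5 urethral libraries above all E18.5 bladder ones. From 2.70 at E14.5 the log2 difference went to -3.17 at E18.5, a change of -5.87 ± 0.65 (adjusted p = 0.00102). Pitx3 lies on chromosome 19 from 46135685 to 46148326. The bladder level changed by -4.12 ± 0.49, adjusted p = 4.84e-05 and the urethral level by 1.75 ± 0.43, adjusted p = 0.0123. Sphkap, an anchor of protein kinase A, was at 3.61, 12.3 and 9.04 CPM in the E14.5 bladder libraries, 1.78, 3.19 and 3.85 in E14.5 urethra, 0.523, 0.215 and 0.480 in E18.5 bladder and 1.98, 2.38 and 3.07 in E18.5 urethra. At E14.5 the compartments overlapped and at E18.5 each urethral library exceeded each bladder one, and bladder alone fell. From 1.495 at E14.5 the log2 difference went to -2.55 at E18.5, a change of -4.05 ± 0.67 (adjusted p = 0.00418). Its E14.5 bladder 1 library, at 3.61 CPM, was below E14.5 urethra 3. Fam167b measured 3.38, 6.67 and 6.96 CPM in the E14.5 bladder libraries, 1.59, 2.17 and 1.69 in E14.5 urethra, 0.860, 1.29 and 1.38 in E18.5 bladder and 4.59, 4.84 and 3.48 in E18.5 urethra. Bladder fell while urethra rose with stage, and bladder was the higher in every library at E14.5 and each urethral library exceeded each bladder one at E18.5. From 1.64 at E14.5 the log2 difference went to -1.87 at E18.5, a change of -3.51 ± 0.47 (adjusted p = 0.00183). Lrrn2, a leucine-rich repeat membrane protein, was at 26.8, 84.2 and 61.02 CPM in the E14.5 bladder libraries, 19.1, 11.02 and 15.7 in E14.5 urethra, 10.02, 7.29 and 6.56 in E18.5 bladder and 17.3, 30.8 and 25.1 in E18.5 urethra. Urethra was the higher in every library at E18.5 and each bladder library exceeded each urethral one at E14.5, and bladder alone fell. From 1.91 at E14.5 the log2 difference went to -1.61 at E18.5, a change of -3.52 ± 0.54 (adjusted p = 0.00359). No single library left out ended any of these 4 calls.

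Retinoic acid genes changed in both directions. Of 15 tested, 3 changed toward bladder and 5 toward urethra (median change -0.67), and both counts kept within 1.5 times with any 1 library left out. The enzymes that make retinoic acid split. Aldh1a3 stood at 7.18, 7.33 and 5.49 CPM in the E14.5 bladder libraries, 12.7, 10.8 and 10.9 in E14.5 urethra, 3.48, 2.25 and 3.39 in E18.5 bladder and 41.2, 74.2 and 33.2 in E18.5 urethra. It fell in bladder and rose in urethra, and at E18.5 the groups were far apart. From -0.78 at E14.5 the log2 difference went to -4.01 at E18.5, a change of -3.23 ± 0.40 (adjusted p = 0.00123). Aldh1a1 was at 8.36, 2.65 and 4.37 CPM in the E14.5 bladder libraries, 31.5, 11.5 and 16.3 in E14.5 urethra, 19.6, 25.5 and 31.6 in E18.5 bladder and 12.8, 7.21 and 11.9 in E18.5 urethra. Urethra was the higher in every library at E14.5 and bladder was the higher in every library at E18.5, and bladder alone rose. From -1.95 at E14.5 the log2 difference went to 1.26 at E18.5, a change of 3.21 ± 0.62 (adjusted p = 0.00982), a reversal. Aldh1a2, the most abundant gene of the list that was not called, fell in both compartments, from 263 ± 72.1 to 109.8 ± 12.7 CPM in bladder and from 423 ± 91.7 to 203 ± 35.5 in urethra (-0.20 ± 0.30, adjusted p = 0.732). Among carriers, the retinol carrier Rbp4 reversed toward bladder, at 2.97, 4.48 and 1.99 CPM in the E14.5 bladder libraries, 19.6, 5.55 and 7.34 in E14.5 urethra, 34.8, 48.6 and 35.1 in E18.5 bladder and 14.1, 14.9 and 21.4 in E18.5 urethra. At E14.5 each urethral library exceeded each bladder one and at E18.5 each bladder library exceeded each urethral one, and bladder alone rose. From -1.77 at E14.5 the log2 difference went to 1.23 at E18.5, a change of 3.01 ± 0.62 (adjusted p = 0.0126). Crabp2, the intracellular carrier of retinoic acid, fell more in bladder than in urethra, at 28.8, 24.8 and 27.3 CPM in the E14.5 bladder libraries, 76.1, 57.6 and 69.5 in E14.5 urethra, 2.504, 3.49 and 3.104 in E18.5 bladder and 47.5, 48.1 and 38.9 in E18.5 urethra. Both levels fell, and urethra was the higher in every library at both stages. From -1.33 at E14.5 the log2 difference went to -3.89 at E18.5, a change of -2.56 ± 0.22 (adjusted p = 0.000673). The retinol receptor Stra6 (-2.44 ± 0.55, adjusted p = 0.0198) and the retinoic acid receptor Rara (-0.72 ± 0.16, adjusted p = 0.0184) also changed toward urethra, and the reductase Dhrs3 toward bladder (1.10 ± 0.29, adjusted p = 0.0355). Calls ended for Stra6 without E18.5 bladder 3 (adjusted p = 0.0599), for Rara without E18.5 urethra 1 (adjusted p = 0.0514) and for Dhrs3 without any 1 library other than E14.5 bladder 1 and E18.5 bladder 2 (adjusted p = 0.0541 to 0.0862). Rbp4 changed by 2.26 without E14.5 urethra 1, and Stra6 by -3.22 without E18.5 bladder 2.

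Of the Wnt genes called, most ligands changed toward bladder and the antagonists toward urethra. Of 16 ligands and R-spondins, Rspo1, Wnt10a, Wnt6 and Wnt2b changed toward bladder and Wnt5b toward urethra (median 0.79). Rspo1, which strengthens Wnt signals, stood at 17.7, 4.5996 and 8.91 CPM in the E14.5 bladder libraries, 5.67, 9.21 and 10.4 in E14.5 urethra, 43.5, 34.5 and 51.04 in E18.5 bladder and 4.09, 3.69 and 3.97 in E18.5 urethra. Bladder was the higher in every library at E18.5 and the compartments overlapped at E14.5. By the stage test bladder alone rose, though every E18.5 urethral library was below every E14.5 one. From 0.30 at E14.5 the log2 difference went to 3.45 at E18.5, a change of 3.15 ± 0.55 (adjusted p = 0.00594). Wnt10a lost a urethral bias (3.56 ± 0.76, adjusted p = 0.0151), as did Wnt6 (1.87 ± 0.53, adjusted p = 0.0486). Wnt5b reversed (-1.46 ± 0.25, adjusted p = 0.00444), and the bladder bias of Wnt2b widened as urethra fell (1.10 ± 0.28, adjusted p = 0.0326). Of 11 secreted antagonists, 3 changed toward urethra and the median was -2.04. Sfrp1, a decoy that binds Wnts, was at 260.4, 244 and 289 CPM in the E14.5 bladder libraries, 108, 143 and 153 in E14.5 urethra, 78.7, 84.3 and 72.4 in E18.5 bladder and 163, 245 and 169.8 in E18.5 urethra. It reversed with no overlap at either stage. From 0.97 at E14.5 the log2 difference went to -1.30 at E18.5, a change of -2.27 ± 0.24 (adjusted p = 0.000773). Sfrp2 (-1.06 ± 0.29, adjusted p = 0.0420) and Sostdc1, given above, were the other two. Of 14 response genes, Nkd2 (2.63 ± 0.51, adjusted p = 0.0108), Znrf3 (1.32 ± 0.22, adjusted p = 0.00411) and Nkd1 (0.92 ± 0.23, adjusted p = 0.0255), all feedback inhibitors, changed toward bladder. The R-spondin receptors Lgr5 (-2.26 ± 0.51, adjusted p = 0.0182) and Lgr6 (-1.91 ± 0.39, adjusted p = 0.0117) changed toward urethra. Lgr6 rose in urethra alone, from 3.64 ± 0.216 to 16.8 ± 3.88 CPM. Calls did not hold for Wnt6 without any 1 library other than E14.5 bladder 1 (adjusted p = 0.0559 to 0.118), for Wnt2b without E14.5 bladder 2, E14.5 urethra 3, E18.5 bladder 1 or E18.5 urethra 1 or 3 (adjusted p = 0.0586 to 0.0823), for Sfrp2 without any 1 library other than E14.5 bladder 1, E14.5 urethra 1 and E18.5 urethra 2 (adjusted p = 0.0601 to 0.101), for Nkd1 without E14.5 bladder 3, E18.5 bladder 1 or 2 or E18.5 urethra 1 or 2 (adjusted p = 0.0551 to 0.0695) and for Lgr5 without E18.5 bladder 1 (adjusted p = 0.0518). Rspo1 changed by 3.79, Wnt10a by 4.88, Wnt6 by 2.63, Nkd2 by 3.28 and Lgr5 by -1.58 without E14.5 bladder 1. Sfrp2 shares 16.1% of its exon length with a gene on the other strand.

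BMP, FGF and Hedgehog genes were called in small numbers, beside 4.64% of all genes toward bladder and 4.03% toward urethra. Besides Bmp7, Id1, a direct BMP response gene, changed toward bladder (0.61 ± 0.17, adjusted p = 0.0436), 2 of 16 members. Of 12 secreted BMP antagonists, Fst, Chrdl2 and Bmper changed toward urethra. The median change over the 12 was -0.04, so the list as a whole did not shift. Follistatin, Fst, which binds activins and BMPs, stood at 14.7, 19.4 and 20.9 CPM in the E14.5 bladder libraries, 17.02, 8.79 and 10.5 in E14.5 urethra, 5.42, 8.53 and 7.55 in E18.5 bladder and 28.5, 73.5 and 50.5 in E18.5 urethra. The ranges of the compartments met at E14.5 and urethra was the higher in every library at E18.5, and bladder fell while urethra rose. From 0.60 at E14.5 the log2 difference went to -2.83 at E18.5, a change of -3.43 ± 0.48 (adjusted p = 0.00237). Chrdl2 narrowed a bladder bias (-1.86 ± 0.52, adjusted p = 0.0454) and Bmper lost one (-1.71 ± 0.39, adjusted p = 0.0192). Besides Fgfr2, Fgfr3 changed toward bladder (1.44 ± 0.34, adjusted p = 0.0208), 2 of 16 FGF genes. The median change over the 16 was 0.01. At an unadjusted p under 0.05 in edgeR, 4 changed toward bladder and 3 toward urethra, so the list had no common direction. Of 12 Hedgehog genes, the ligand Shh (2.84 ± 0.78, adjusted p = 0.0493), which is made by epithelium, and the decoy receptor Hhip (1.12 ± 0.32, adjusted p = 0.0472) lost a urethral bias. Shh stood at 31.8, 11.9 and 3.2002 CPM in the E14.5 bladder libraries, 55.1, 57.01 and 65.02 in E14.5 urethra, 131, 101 and 167 in E18.5 bladder and 72.1, 57.8 and 81.7 in E18.5 urethra. Its bladder libraries ranked as the epithelial sums did at both stages, and its urethral libraries did so at neither stage. The part of epithelial RNA in these calls was not tested. The threshold was missed for Id1 without any 1 library other than E14.5 bladder 1 and E18.5 bladder 2 (adjusted p = 0.0656 to 0.109), for Chrdl2 without any 1 library other than E14.5 bladder 1, E14.5 urethra 1 and E18.5 bladder 1 (adjusted p = 0.0664 to 0.102) and for Bmper without E14.5 urethra 3, E18.5 bladder 1 or E18.5 urethra 3 (adjusted p = 0.0506 to 0.0525). With fewer libraries, calls ended for Fgfr3 without E18.5 urethra 1 or 2 (adjusted p = 0.0526 to 0.0543), for Shh without any 1 library other than E14.5 bladder 1 and 3 (adjusted p = 0.0657 to 0.124) and for Hhip without any 1 library other than E14.5 urethra 2 and E18.5 bladder 3 (adjusted p = 0.0541 to 0.111). Shh changed by 3.89 without E14.5 bladder 1. Exon overlap with a gene on the other strand was 15.7% for Shh and 13.9% for Fgfr3.

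The patterning factors that were called changed toward urethra. Of 34 patterning factors tested, 4 were called toward urethra (Six2, Irx3, Dlx2 and Meis2), with a median of -0.80, and Hoxc10 was the 1 of 14 posterior Hox genes called (-1.56 ± 0.44, adjusted p = 0.0433). Of all genes 4.03% were called toward urethra, so 1 of 14 is no result about the Hox list. Six2, a factor of mesenchymal progenitors, stood at 7.36, 4.64 and 3.42 CPM in the E14.5 bladder libraries, 65.8, 37.9 and 69.9 in E14.5 urethra, 0.486, 0.697 and 0.864 in E18.5 bladder and 47.4, 38.1 and 33.4 in E18.5 urethra. Its urethral bias widened as bladder fell. From -3.49 at E14.5 the log2 difference went to -5.84 at E18.5, a change of -2.35 ± 0.46 (adjusted p = 0.00945), which limma-voom did not call (adjusted p = 0.0656). Irx3 (-2.31 ± 0.58, adjusted p = 0.0291) also fell in bladder, Meis2 (-1.32 ± 0.14, adjusted p = 0.00102) fell in both compartments, and Dlx2 (-2.47 ± 0.64, adjusted p = 0.0329) fell from 1.48 ± 0.264 CPM to 0.125 ± 0.0605. Of 17 smooth muscle regulators, Tbx18, a factor of urogenital mesenchyme, lost a bladder bias at 31.8, 23.8 and 36.1 CPM in the E14.5 bladder libraries, 11.3, 18.1 and 7.23 in E14.5 urethra, 16.97, 19.7 and 14.8 in E18.5 bladder and 30.5, 20.4 and 21.5 in E18.5 urethra. At E14.5 each bladder library exceeded each urethral one and at E18.5 each urethral library exceeded each bladder one, and bladder fell while urethra rose. From 1.32 at E14.5 the log2 difference went to -0.50 at E18.5, a change of -1.82 ± 0.41 (adjusted p = 0.0179). Tbx2 lost a urethral bias at 119.8, 71.2 and 69.3 CPM in the E14.5 bladder libraries, 172, 191 and 208 in E14.5 urethra, 142, 186 and 190.4 in E18.5 bladder and 109, 129 and 132 in E18.5 urethra. Bladder rose while urethra fell with stage, and urethra was the higher in every library at E14.5 and each bladder library exceeded each urethral one at E18.5. From -1.13 at E14.5 the log2 difference went to 0.49 at E18.5, a change of 1.62 ± 0.28 (adjusted p = 0.00496). In both genes the 2 compartments moved in opposite directions. Hand2 took on a urethral bias as bladder fell (-1.01 ± 0.27, adjusted p = 0.0368). Tbx18 and Hand2 share 20.6% and 19.6% of exon length with genes on the other strand. Calls were lost for Hoxc10 without any 1 library other than E14.5 bladder 2, E14.5 urethra 1 and E18.5 urethra 1 (adjusted p = 0.0649 to 0.112), for Irx3 without any 1 library other than E14.5 bladder 1, E14.5 urethra 1 and 2, E18.5 bladder 2 and E18.5 urethra 1 (adjusted p = 0.0537 to 0.0735), for Dlx2 without any 1 library other than E14.5 bladder 1 and 2, E14.5 urethra 2 and 3, E18.5 bladder 3 and E18.5 urethra 1 (adjusted p = 0.0569 to 0.0901) and for Hand2 without any 1 library other than E14.5 bladder 1, E14.5 urethra 3, E18.5 bladder 2 and E18.5 urethra 1 (adjusted p = 0.0662 to 0.0836). Irx3 changed by -3.05 without E14.5 urethra 1.

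Of 9 sex steroid genes, 2 changed toward bladder and 1 toward urethra, beside 4.64% and 4.03% of all genes. The 1 toward urethra is no result about this list. The 5-alpha-reductases, which convert testosterone to its more potent form, were called in opposite directions. Srd5a1 rose to 308 ± 62.4 CPM in E18.5 bladder, from 24.01 ± 16.2 at E14.5, and less in urethra, from 21.6 ± 5.55 to 64.01 ± 14.2 CPM (2.11 ± 0.57, adjusted p = 0.0435). Srd5a2 had 3 counts in the E18.5 bladder libraries together and 1134 in those of urethra, a ratio, scaled for library size, of 296 (95% exact counting interval 101 to 1435), and its level fell in bladder (adjusted p of the change = 0.0378). Fkbp5, a steroid response gene, changed by 0.72 ± 0.21, adjusted p = 0.0473. Among these genes, calls ended for Srd5a1 without any 1 library other than E14.5 bladder 1 and 3 (adjusted p = 0.0524 to 0.104), for Srd5a2 without any 1 library other than E14.5 bladder 1 and 3, E14.5 urethra 1 and E18.5 bladder 1 (adjusted p = 0.0569 to 0.102) and for Fkbp5 without any 1 library other than E14.5 urethra 2 (adjusted p = 0.0519 to 0.114). Srd5a1 changed by 2.81 without E14.5 bladder 1. Exons of Srd5a1 share 16.4% of their length with another gene on the same strand.

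Some genes of epithelium changed toward bladder, beside the rise of the epithelial sum given above. Of 24 tested, 4 were called (Trp63, Perp, Grhl3 and Esrp2), with a median change of 1.65. Trp63, the basal cell factor, stood at 13.99, 4.97 and 2.21 CPM in the E14.5 bladder libraries, 54.1, 28.1 and 41.01 in E14.5 urethra, 129, 72.3 and 126 in E18.5 bladder and 66.4, 53.5 and 71.8 in E18.5 urethra, with E14.5 bladder 1 highest of its group. From -2.55 at E14.5 the log2 difference went to 0.77 at E18.5, a change of 3.32 ± 0.72 (adjusted p = 0.0183). Perp, a desmosomal protein that p63 activates (2.79 ± 0.69, adjusted p = 0.0319), Grhl3, a factor of surface epithelia (2.73 ± 0.72, adjusted p = 0.0418), and Esrp2, an epithelial splicing factor (2.56 ± 0.71, adjusted p = 0.0492), rose in bladder alone. The keratin Krt15, most abundant of those not called, went from 63.6 ± 69.8 to 1129 ± 309 CPM in bladder and from 408 ± 222 to 1321 ± 256 in urethra (2.45 ± 0.95, adjusted p = 0.143). The count called was 0 without E18.5 bladder 1 or E18.5 urethra 1 or 2, 1 without E14.5 bladder 2, E14.5 urethra 1 or 3, E18.5 bladder 2 or 3 or E18.5 urethra 3, 2 without E14.5 urethra 2, and 18 without E14.5 bladder 1, and 17 without replicate 1 of both E14.5 groups. The share of epithelial cells left in each sample after peeling was not measured, and its part in these changes was not tested. Calls ended for Trp63 without E18.5 bladder 1 or E18.5 urethra 1 or 2 (adjusted p = 0.0513 to 0.0572), for Perp without any 1 library other than E14.5 bladder 1 and 3 and E14.5 urethra 2 (adjusted p = 0.0507 to 0.0832), for Grhl3 without any 1 library other than E14.5 bladder 1 and 3 (adjusted p = 0.0596 to 0.106) and for Esrp2 without any 1 library other than E14.5 bladder 1 and 3 (adjusted p = 0.0680 to 0.119). Esrp2 was not called either with median-ratio size factors (adjusted p = 0.0529), no low-count filter (adjusted p = 0.144) or the length trend removed (adjusted p = 0.0502). Trp63 changed by 4.30, Perp by 3.78, Grhl3 by 3.57 and Esrp2 by 3.57 without E14.5 bladder 1.

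A group of endothelial genes changed toward urethra. Of 15 tested, 5 were called toward urethra (Tek, Egfl7, Emcn, Tie1 and Cldn5; median -0.90), while the summed level of the list was 589 to 981 CPM in E14.5 bladder, 449 to 663 in E14.5 urethra, 528 to 674 in E18.5 bladder and 763 to 871 in E18.5 urethra. Tek, the angiopoietin receptor, stood at 31.5, 60.6 and 49.5 CPM in the E14.5 bladder libraries, 24.7, 15.7 and 17.7 in E14.5 urethra, 36.8, 31.2 and 26.3 in E18.5 bladder and 46.9, 44.9 and 40.6 in E18.5 urethra. Urethra was the higher in every library at E18.5 and each bladder library exceeded each urethral one at E14.5, and urethra alone rose. From 1.29 at E14.5 the log2 difference went to -0.49 at E18.5, a change of -1.78 ± 0.32 (adjusted p = 0.00651). Egfl7, which vessels secrete, reversed at 43.4, 37.8 and 41.4 CPM in the E14.5 bladder libraries, 18.7, 33.99 and 17.4 in E14.5 urethra, 23.5, 41.2 and 33.9 in E18.5 bladder and 56.9, 57.2 and 50.99 in E18.5 urethra. Bladder was the higher in every library at E14.5 and urethra was the higher in every library at E18.5, and urethra alone rose. From 0.80 at E14.5 the log2 difference went to -0.74 at E18.5, a change of -1.55 ± 0.35 (adjusted p = 0.0171). Emcn, a sialomucin of veins and capillaries, was at 23.4, 42.2 and 34.7 CPM in the E14.5 bladder libraries, 27.2, 20.6 and 22.5 in E14.5 urethra, 15.4, 17.2 and 10.98 in E18.5 bladder and 26.4, 33.8 and 26.2 in E18.5 urethra. At E14.5 the compartments overlapped and at E18.5 each urethral library exceeded each bladder one, and bladder alone fell. From 0.52 at E14.5 the log2 difference went to -0.99 at E18.5, a change of -1.51 ± 0.32 (adjusted p = 0.0129). Tie1 (-1.09 ± 0.26, adjusted p = 0.0218) and the tight junction protein Cldn5 (-0.89 ± 0.24, adjusted p = 0.0386) followed, and Cdh5, the most abundant member not called, changed by -0.80 ± 0.41, adjusted p = 0.254. The count was 3 without E18.5 bladder 3 and 10 without replicate 1 of both E14.5 groups. Calls did not hold for Tie1 without E18.5 bladder 3 or E18.5 urethra 1 (adjusted p = 0.0507 to 0.0571) and for Cldn5 without any 1 library other than E14.5 bladder 1, E14.5 urethra 1 and E18.5 bladder 2 (adjusted p = 0.0655 to 0.0918). The replicate block ended the call of Cldn5 too (adjusted p = 0.0594).

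Of 16 macrophage and mast cell genes, Kit, Lyz2 and C1qb changed toward urethra. Kit, the receptor of stem cell factor on mast and interstitial cells, stood at 35.6, 89.7 and 54.7 CPM in the E14.5 bladder libraries, 36.9, 45.5 and 39.7 in E14.5 urethra, 16.97, 10.1 and 14.98 in E18.5 bladder and 49.6, 53.6 and 54.3 in E18.5 urethra. Its E14.5 groups overlapped, and E18.5 bladder was lowest. From 0.56 at E14.5 the log2 difference went to -1.90 at E18.5, a change of -2.46 ± 0.39 (adjusted p = 0.00411). The mast cell proteases of the list went the other way in bladder, where Cpa3 rose from 1.72 ± 0.350 to 17.4 ± 6.39 CPM and Cma1 from 0.469 ± 0.369 to 15.04 ± 4.51. In urethra they rose to 4.84 ± 2.63 and 3.52 ± 1.78 CPM, and neither was called for the change (adjusted p = 0.636 and 0.901). Mcpt4, another such protease, reached 2.31 ± 0.788 CPM in E18.5 bladder and 0.425 ± 0.0273 in urethra and was not called (adjusted p = 0.161). Lyz2, the lysozyme of myeloid cells, was at 22.2, 16.9 and 15.5 CPM in the E14.5 bladder libraries, 6.35, 6.44 and 4.66 in E14.5 urethra, 12.3, 28.9 and 18.1 in E18.5 bladder and 24.1, 31.1 and 26.4 in E18.5 urethra. Urethra alone rose with stage, and bladder was the higher in every library at E14.5 and the compartments overlapped at E18.5. From 1.64 at E14.5 the log2 difference went to -0.46 at E18.5, a change of -2.11 ± 0.38 (adjusted p = 0.00653). The complement gene C1qb changed by -1.15 ± 0.28, adjusted p = 0.0265. Mrc1, more abundant and not called, rose in both compartments (-0.20 ± 0.29, adjusted p = 0.720). Of interstitial and fibroblast genes, Pdgfa changed toward bladder (1.05 ± 0.29, adjusted p = 0.0455), with 26.1% of its exon length shared with a gene on the other strand. The adult globin Hbb-bt changed toward urethra (-0.94 ± 0.26, adjusted p = 0.0466). The threshold was missed for C1qb without any 1 library other than E14.5 bladder 1, 2 and 3, E14.5 urethra 1 and 2 and E18.5 bladder 1 (adjusted p = 0.0557 to 0.0679), for Pdgfa without any 1 library other than E14.5 bladder 1 and E14.5 urethra 2 (adjusted p = 0.0509 to 0.108) and for Hbb-bt without any 1 library other than E14.5 urethra 1 and E18.5 bladder 2 (adjusted p = 0.0530 to 0.108).

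The neuronal genes had a higher summed level in urethra at both stages, at 154 to 637 CPM in E14.5 bladder, 1136 to 1531 in E14.5 urethra, 116 to 254 in E18.5 bladder and 981 to 2459 in E18.5 urethra. The median change over the 14 tested was -1.57. Of 16 transmitter genes, Th and Ddc were called. Th, which makes the dopamine precursor, stood at 5.44, 2.28 and 1.77 CPM in the E14.5 bladder libraries, 17.1, 8.53 and 8.48 in E14.5 urethra, 1.12, 1.502 and 2.496 in E18.5 bladder and 30.1, 53.3 and 46.02 in E18.5 urethra. Urethra alone rose, and each urethral library exceeded each bladder one at both stages. From -1.84 at E14.5 the log2 difference went to -4.64 at E18.5, a change of -2.80 ± 0.63 (adjusted p = 0.0195). Ddc, the next enzyme of that pathway, was at 24.9, 19.2 and 34.6 CPM in the E14.5 bladder libraries, 26.4, 24.2 and 28.2 in E14.5 urethra, 15.5, 17.2 and 16.2 in E18.5 bladder and 47.6, 57.8 and 52.2 in E18.5 urethra. The E14.5 groups overlapped, and at E18.5 every urethral library was above every bladder library. From -0.002 at E14.5 the log2 difference went to -1.69 at E18.5, a change of -1.68 ± 0.26 (adjusted p = 0.00309). With fewer libraries, calls ended for Th without E14.5 urethra 3 or E18.5 bladder 1 (adjusted p = 0.0507 to 0.0556). Th changed by -2.14 without E14.5 bladder 1.

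Matrix genes changed in both directions. Of 12 cartilage genes, all chains of collagen IX changed toward urethra. Col9a3 stood at 9.28, 12.8 and 11.2 CPM in the E14.5 bladder libraries, 5.03, 8.58 and 7.64 in E14.5 urethra, 3.81, 2.25 and 4.03 in E18.5 bladder and 25.5, 18.1 and 33.8 in E18.5 urethra. Bladder was the higher in every library at E14.5 and urethra was the higher in every library at E18.5, and bladder fell while urethra rose. From 0.64 at E14.5 the log2 difference went to -2.93 at E18.5, a change of -3.57 ± 0.42 (adjusted p = 0.00106). Col9a2 was at 65.7, 49.8 and 49.99 CPM in the E14.5 bladder libraries, 119, 75.96 and 77.4 in E14.5 urethra, 14.4, 17.97 and 19.04 in E18.5 bladder and 98.1, 60.2 and 91.1 in E18.5 urethra. Each urethral library exceeded each bladder one at both stages, and bladder alone fell. From -0.72 at E14.5 the log2 difference went to -2.28 at E18.5, a change of -1.56 ± 0.31 (adjusted p = 0.00999). Col9a1 followed (-2.22 ± 0.59, adjusted p = 0.0355), while Col2a1, the main cartilage collagen, was not called (-2.55 ± 0.84, adjusted p = 0.0838). Col12a1, a collagen of tendon-like tissue, rose in urethra alone, at 457, 390.3 and 424 CPM in the E14.5 bladder libraries, 433, 394 and 407 in E14.5 urethra, 639, 546 and 399.8 in E18.5 bladder and 1430.1, 1145 and 869 in E18.5 urethra. Urethra alone rose with stage, and the ranges of the compartments met at E14.5 and each urethral library exceeded each bladder one at E18.5. From 0.04 at E14.5 the log2 difference went to -1.12 at E18.5, a change of -1.16 ± 0.27 (adjusted p = 0.0197). Col15a1, of basement membrane zones, changed toward bladder (1.56 ± 0.38, adjusted p = 0.0274). Among 19 elastic fibre genes, Mfap2 (-1.14 ± 0.22, adjusted p = 0.00890), Mfap5 (-2.29 ± 0.54, adjusted p = 0.0256) and Ltbp1 (-1.06 ± 0.23, adjusted p = 0.0151) changed toward urethra and Efemp1, above, toward bladder. Elastin itself was not called (-1.17 ± 0.69, adjusted p = 0.331). The collagen-binding proteoglycan Lum lost a bladder bias (-1.96 ± 0.43, adjusted p = 0.0178), as did Lpl, the enzyme that frees fatty acids (-1.32 ± 0.34, adjusted p = 0.0326). Calls were lost for Col9a1 without any 1 library other than E14.5 bladder 1 and 3, E14.5 urethra 1, E18.5 bladder 3 and E18.5 urethra 2 (adjusted p = 0.0571 to 0.0876) and for Col15a1 without any 1 library other than E14.5 bladder 1 and 2, E14.5 urethra 2, E18.5 bladder 3 and E18.5 urethra 1 (adjusted p = 0.0526 to 0.0741). Among these genes, calls ended for Mfap5 without any 1 library other than E14.5 bladder 1 and 3, E14.5 urethra 1 and 3 and E18.5 bladder 2 (adjusted p = 0.0522 to 0.0717), for Lum without E18.5 bladder 1 (adjusted p = 0.0539) and for Lpl without any 1 library other than E14.5 bladder 1 and 2, E14.5 urethra 2, E18.5 bladder 2 and E18.5 urethra 2 (adjusted p = 0.0589 to 0.0836). Mfap5 changed by -3.01 without E14.5 urethra 1.

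**Figure D5:**
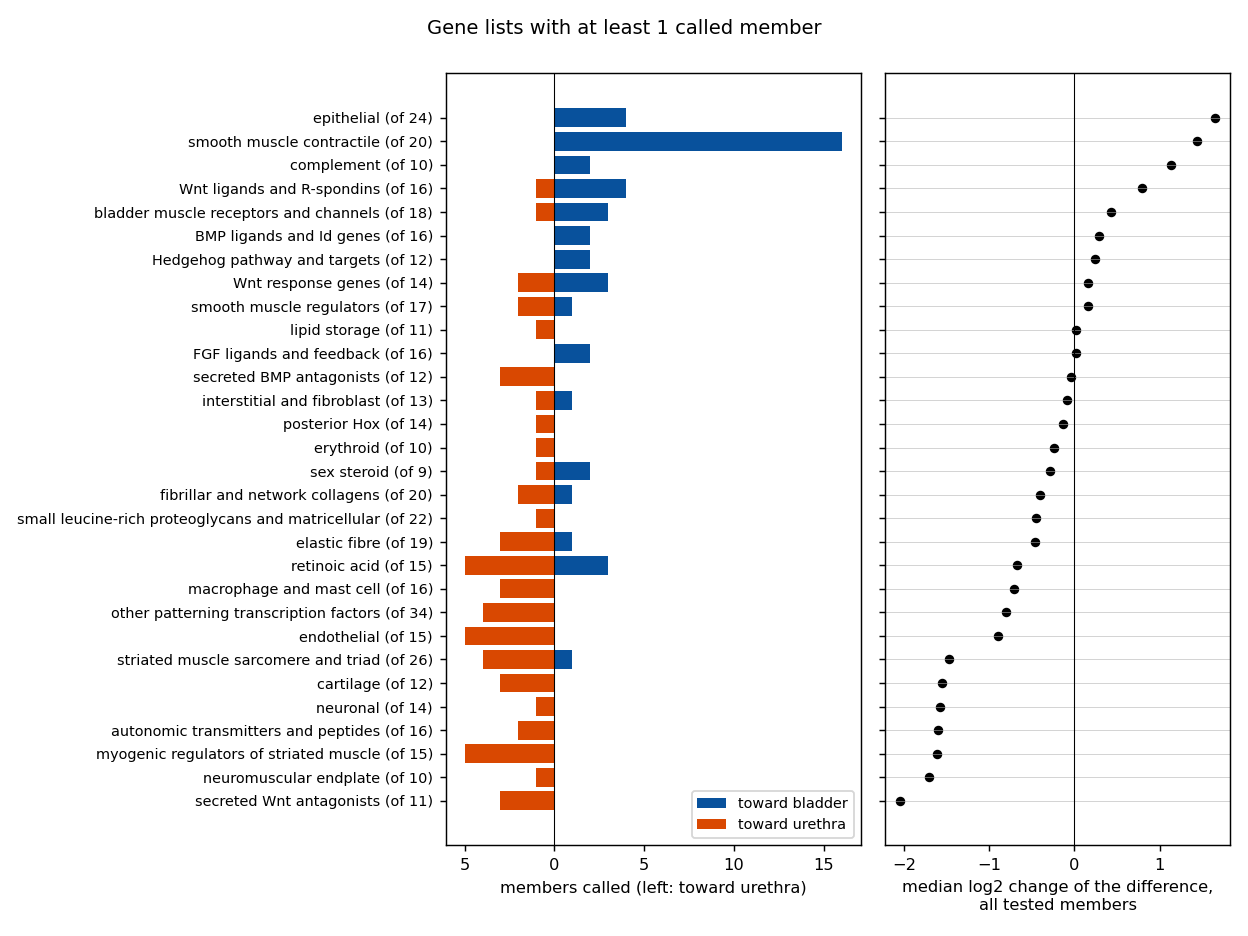
Left, number of members of each gene list called toward bladder (right of 0) or toward urethra (left of 0), with the number tested beside the name; right, the median log2 change of the difference over all tested members. The smooth muscle list has 16 members called toward bladder, and the lists of myogenic regulators, endothelial and retinoic acid genes have 5 each called toward urethra.

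In 6 lists edgeR called no member for a change of the difference. At an unadjusted p under 0.05, 2 and 6 of 24 cell division genes, 1 and 1 of 10 glial genes, 1 and 0 of 8 mesothelial genes, 1 and 3 of 14 neurotrophic factors, 0 and 1 of 16 immediate early genes and 0 and 2 of 8 general mesenchyme genes changed toward bladder and toward urethra respectively. DESeq2 called 3 cell division genes, 1 glial gene, 3 neurotrophic factors and 1 general mesenchyme gene toward urethra, and 1 glial gene and 1 neurotrophic factor toward bladder. Limma-voom called 1 glial gene toward bladder and 1 neurotrophic factor toward urethra. By both tools the remaining counts were 0. Top2a, the topoisomerase of dividing cells, fell with stage in both compartments from 507 ± 93.1 to 262 ± 34.8 CPM in bladder and from 401 ± 38.3 to 214 ± 19.8 in urethra (-0.05 ± 0.22, adjusted p = 0.928). The bladder-high collagen Col3a1 (-0.04 ± 0.28, adjusted p = 0.957) and the urethra-high receptor Pdgfra (-0.24 ± 0.24, adjusted p = 0.602) had biases called at both stages and no called change between them. Mesothelial genes had a summed level of 249.8 to 1003 CPM in E14.5 bladder, 186 to 289 in E14.5 urethra, 3459.97 to 4566 in E18.5 bladder and 715 to 1099 in E18.5 urethra, and 4 of 8 were called toward bladder without replicate 1 of both E14.5 groups. In every group the library with the highest mesothelial sum also had the highest epithelial sum. The part of epithelial RNA in the mesothelial sum was not tested.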

How the data were processed

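The series holds poly(A)-selected, directional RNA-seq of 12 libraries in 4 groups of 3, per the labels' protocols. The deposited tables hold counts per gene that the authors made from reads processed with bcl2fastq, HISAT2 2.2.1 and SAMtools 1.9 on GRCm38, per the submitters' processing notes. Which program counted them, with what annotation and whether by strand, is not given in the sources used here. The 37 mitochondrial genes have 0 counts in all libraries, and exons shared by genes on opposite strands could be counted for either. Genes were filtered with filterByExpr, scaled by TMM and fitted with group means in edgeR 4.0.16 (R 4.3.3), using the robust quasi-likelihood test with Benjamini-Hochberg adjustment over 18805 genes and a threshold of 0.05. Contrasts were the change of the difference, the difference at each stage, and the stage change in each compartment. A bias was called at a stage by its own contrast, and classes follow from these calls. The standard error is the absolute log2 value over the square root of F. The script was tested on simulated data. Alternatives were DESeq2 1.42.0, limma-voom (limma 3.58.1), median-ratio size factors, other low-count filters, removal of the trend with exon length, a replicate block, each library left out, and replicate 1 of both E14.5 groups left out.

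Genes and lists were chosen with earlier results of these data known. Named genes are those called with a mean of at least 5 CPM in 1 group: the 4 with the largest change less 2 standard errors on each side among biases that appeared, were lost or reversed, 2 among those that widened or narrowed, and in each list up to 3 called members and the most abundant member not called. Predicted genes and clone names were left out, and a few genes of the lists are not reported here. Other list members named, such as Myh11, Myl9, Vcl, Tnnt1, Crabp2 and Cldn5, were chosen after their values were seen. Counting intervals and limits cover counting error only. Promoters are from RefSeq (GRCm38.p6).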

Additional observations from a re-analysis of the deposited data

Results flagged for a closer look

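The difference between compartments was itself different between the stages, by the test of the difference, for 873 genes toward bladder and 758 toward urethra. In 85 genes it reversed to bladder and in 52 to urethra. The changes on the log2 scale were 6.54 for Thrsp, 4.99 for Slc1a1, 3.96 for Ikzf3 and 3.87 for Slc16a12 among reversals to bladder. Among reversals to urethra they were -5.87 for Pitx3, -4.05 for Sphkap, -3.51 for Fam167b and -3.52 for Lrrn2. The size given for Thrsp is uncertain, since most of its E14.5 bladder libraries were under the limit of 3 counts. Groups of 3 libraries are too small for a test of outlying samples.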

How the results depend on the processing

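All 1631 genes kept their sign in each of the alternatives in which they were tested. They were called from these same libraries, so a kept sign was nearly given beforehand and is no check of the directions. Counts of calls did move. DESeq2 called 1263 genes toward bladder and 1333 genes toward urethra, with 293 and 262 bladder and urethral biases lost, 82 reversals to urethra, 155 and 330 biases widened, 57 and 20 narrowed, 343 genes moved in urethra alone and 573 in both in the same direction. Of the 1631, 1617 were called by DESeq2 and 1528 by limma-voom. Without replicate 1 of both E14.5 groups there were 1450 genes toward bladder, 256 and 379 biases lost, 250 and 109 reversed, 73 and 61 narrowed, 347 moved in urethra alone, 162 in opposite directions and 703 in the same direction. With 1 library left out, counts ranged over 502 to 1505 genes toward bladder, 470 to 917 genes toward urethra, 303 to 687 and 241 to 439 biases appearing (bladder, then urethra, here and below), 75 to 234 and 60 to 381 lost, 33 to 243 and 26 to 75 reversed, 45 to 115 and 77 to 136 widened, and 7 to 46 and 1 to 59 narrowed. The movers ranged over 615 to 1311 in bladder alone, 96 to 290 in urethra alone, 38 to 134 in opposite directions and 110 to 755 in the same direction. The causes were not tested. With the replicate number as a block within stage, 1063 genes toward bladder and 831 genes toward urethra were called, reversals to bladder numbered 138 and narrowed urethral biases 18. No label says that a number marks a litter: deviations of same-numbered libraries correlated at 0.19, -0.03 and 0.21 at E14.5 and 0.20, 0.19 and 0.29 at E18.5, and every E18.5 library correlated best with its own number, as did pairs 1 and 3 at E14.5. Which levels moved was not computed with the block, in which stage is nested. No count moved past 1.5 times with limma-voom, median-ratio size factors, another low-count filter or the trend with exon length removed, or, for biases appearing or lost, with an absent bias also required to be under 1 on the log2 scale. The change correlated with exon length at a Spearman rho of 0.12 across genes. Of the 96 called genes that the naming rule picks, calls ended for 10 with limma-voom (Npy6r, Hdc, Colq, Col9a1, C7, Hoxc10, Dlx2, Six2, Hhip and Srd5a2), 6 with median-ratio size factors, 20 with no filter, 5 without the length trend and 7 with the block (Hdc, Tacr1, Lpl, Hhip, Id1, Srd5a2 and Fkbp5). Among list members outside that rule, the block also ended the calls of Myl9 (adjusted p = 0.0690) and Cldn5 (adjusted p = 0.0594). Genes under about 0.140 CPM in a group are limited by depth.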
